A study of Mus musculus with 75 samples.

Results

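The early injury response was described by comparing 10 BLEO-IPF mice on day 7 after bleomycin (BLEO) administration with 10 control mice (CTRL), chosen by their sample labels from 75 mice with 1 lung library each. Of 55536 annotated genes, the 16221 that passed a filter on low counts were compared. All mice were male C57BL/6JRj mice, 12 to 14 weeks old at the start. BLEO-IPF mice had received bleomycin sulphate once through the trachea, and only those that had lost 5 to 17% of their body weight by day 6 were kept. A further 12 BLEO-IPF mice, treated alike and killed on day 14, served for a second contrast. The samples of the CTRL group are labelled saline, whereas the protocol describes untreated mice. RNA came from the right lung's inferior lobe after lavage, so cells lost to the lavage were not measured. The lung markers *Sftpc*, *Scgb1a1* and *Ager* were abundant in all 20 libraries, with lowest values of 9125 CPM, 6253 CPM and 1598 CPM.

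Bleomycin is a glycopeptide that binds iron and breaks DNA strands, and the lung is prone to its toxicity because it holds little bleomycin hydrolase, the enzyme that inactivates the drug. Gas exchange depends on thin AT1 cells and on AT2 cells, which make surfactant and serve as progenitors of the alveolar lining. After injury AT2 cells pass through a keratin-rich transitional state, monocytes enter and become macrophages, and fibroblasts deposit a provisional matrix before collagen accumulates. Day 7 in this model stands at the end of the acute inflammatory phase.

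Expression in the lung was altered widely on day 7. By edgeR's quasi-likelihood F test with Benjamini-Hochberg adjustment (adjusted p under 0.05), 7429 of 16221 genes (45.8%) were called, of which 4030 (24.8%) were upregulated and 3399 (21.0%) were downregulated. Large changes were mostly increases, as 827 upregulated genes but 201 downregulated genes changed by a log2 fold change (log2FC) of at least 1 in size, and 73 genes rose by at least 3 on that scale whereas 0 fell by as much. Most calls were small, since 59.1% of the called genes had a log2FC under 0.5 in size, and the median log2FC of all genes tested was -0.0024. In 1815 genes (11.2%), 1198 higher and 617 lower, the 10 day 7 mice and the 10 CTRL mice did not overlap. Among 380 lincRNAs tested, 39 rose and 91 fell, and among 301 antisense genes 20 rose and 64 fell, compared with 3897 and 3097 of 14555 protein-coding genes. The strand setting of the counting is not given in the sources used here, so counts of antisense genes may hold reads of their partners. The median SD of log2 CPM (counts per gene scaled to a common library size) between mice was 0.226 on day 7 and 0.169 in CTRL mice, and 74.8% of the genes had the larger SD on day 7.

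**Figure D1:**
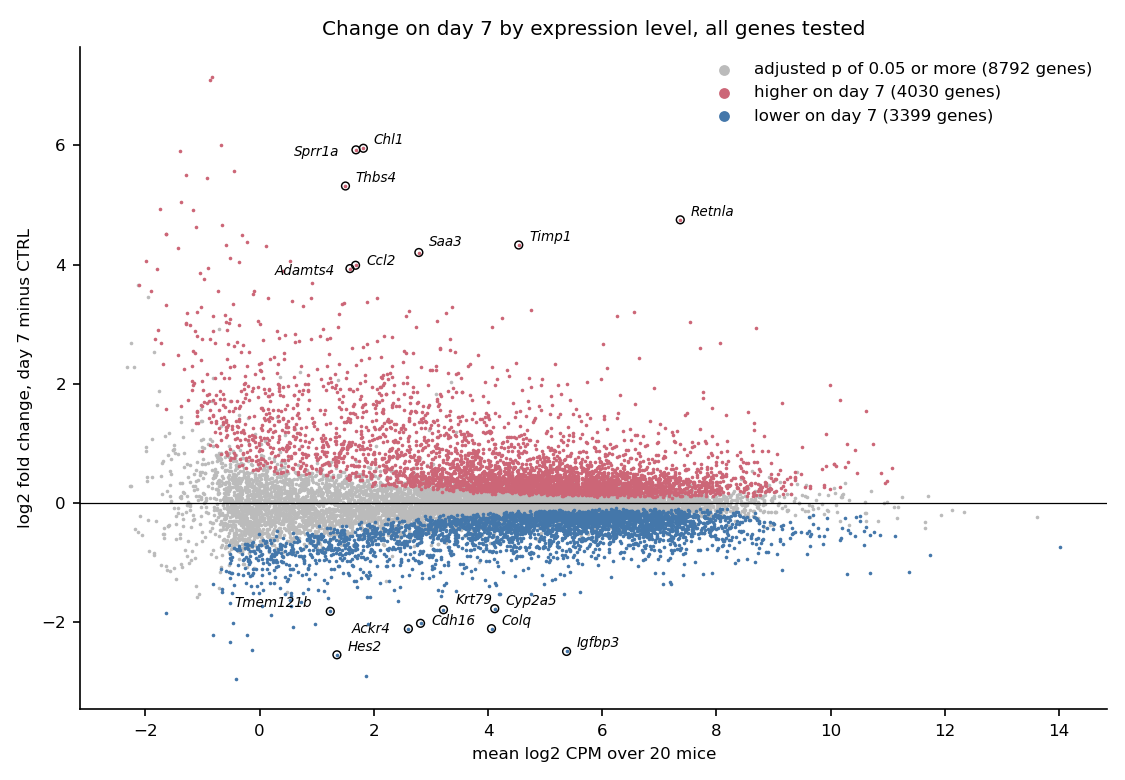
Each point is 1 of 16221 genes, with the mean log2 CPM over the 20 mice on the x axis and the log2FC on day 7 against CTRL on the y axis. Red points are the 4030 genes called higher, blue points the 3399 called lower, grey points were not called, and the named circles are the 8 largest increases and 8 largest decreases with a mean log2 CPM above 1 and no overlap between groups.

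Total counts were 9662299 to 14665247 per CTRL library and 9718300 to 12329251 per day 7 library, and mitochondrial genes held 1.62 to 2.09% and 1.36 to 2.04% of them. The first principal component, with 45.9% of the variance, separated all mice of the 2 groups. Marker genes of neighbouring tissue stood apart in 5 libraries. Summed thymus genes reached 13.7, 8.21 and 26.3 CPM in CTRL replicates 5, 8 and 9 against a CTRL median of 1.23 CPM. Summed cardiac genes reached 431 CPM in day 7 replicate 1 against a day 7 median of 75.3 CPM, and summed adipose genes reached 113 CPM in day 7 replicate 8 against a median of 2.44 CPM. Without these 5 mice, an alternative chosen after seeing the data, 6126 genes were called, 3302 higher and 2824 lower, and counts for gene groups that changed by over 1.5 times and by at least 2 genes without them are given beside the group. Counts that changed from 1 to 0, from 2 to 1 or from 1 to 2 were those of AT1 cells and lymph node stroma among the higher genes, and of AT2 cells, monocytes, chemokine ligands, p53 targets, DNA break repair and immediate early genes among the lower genes. Several named genes overlap genes on either strand that together held more counts than they did (*Adamts4*, *Ackr4*, *Foxp3*, *Cyp51*, *Slc7a10*, *Ddit3*, *Ndufs1* and *Rag1*), so their values are uncertain.

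The 8 largest increases were taken among genes with a mean log2 CPM above 1 and no overlap between groups. They were in genes of cell adhesion, matrix, epithelial injury, inflammation and proteolysis or its inhibition. Which cells gave these increases was not tested. *Chl1* (chr6:103510586-103750211), a neural cell adhesion molecule, ranged 0.0928 to 0.571 CPM (median 0.389) in CTRL mice and 9.98 to 39.6 CPM (median 24.3) on day 7 (log2FC 5.95 ± 0.85, adjusted p = 3.2e-08). *Sprr1a* (chr3:92483952-92485895), a cornified envelope protein, ranged 0 to 1.04 CPM (median 0.282) in CTRL mice and 14.02 to 31.7 CPM (median 22.6) on day 7 (log2FC 5.93 ± 0.41, adjusted p = 1.4e-19). *Thbs4* (chr13:92751590-92794818), a matricellular thrombospondin, ranged 0.0795 to 0.719 CPM (median 0.367) in CTRL mice and 9.70 to 32.2 CPM (median 14.5) on day 7 (log2FC 5.32 ± 0.72, adjusted p = 8.6e-09). For these genes the lowest day 7 mouse exceeded the highest CTRL mouse several times over. *Retnla*, a gene of the type 2 response, ranged 20.02 to 47.9 CPM (median 32.1) in CTRL mice. On day 7 it ranged 458 to 1294 CPM (median 865, log2FC 4.75 ± 0.43). *Timp1*, an inhibitor of matrix metalloproteinases, ranged 3.78 to 6.52 CPM (median 5.31) in CTRL mice and 65.3 to 150.3 CPM (median 101) on day 7 (log2FC 4.33 ± 0.51). The acute phase gene *Saa3* ranged 0.921 to 7.39 CPM (median 1.13) in CTRL mice and 12.5 to 75.2 CPM (median 31.7) on day 7, and 1 CTRL mouse lay far above the other CTRL mice (log2FC 4.20 ± 0.82). *Ccl2*, the main chemokine for monocytes, had a log2FC of 3.99 ± 0.59, and the aggrecanase gene *Adamts4*, whose overlapping genes held counts equal to 1052% of its own, one of 3.93 ± 0.62.

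The 8 largest decreases by the same rule were smaller than the increases. *Hes2* (chr4:152158867-152162469), a basic helix-loop-helix repressor, ranged 3.82 to 8.27 CPM (median 6.08) in CTRL mice and 0.264 to 2.76 CPM (median 0.788) on day 7 (log2FC -2.55 ± 0.41, adjusted p = 7.0e-07). *Igfbp3* (chr11:7206086-7213923), a carrier of insulin-like growth factors, ranged 71.01 to 135 CPM (median 106) in CTRL mice and 8.50 to 53.8 CPM (median 15.4) on day 7 (log2FC -2.49 ± 0.33, adjusted p = 6.3e-09). *Colq* (chr14:31523082-31591343), the collagen-like tail of acetylcholinesterase, ranged 25.2 to 45.9 CPM (median 37.9) in CTRL mice and 2.59 to 19.6 CPM (median 8.22) on day 7 (log2FC -2.11 ± 0.43, adjusted p = 4.2e-05). The rule itself required groups that do not overlap. The other decreases were in *Cdh16*, a cadherin (log2FC -2.02 ± 0.28), *Tmem121b* (-1.82 ± 0.39), *Krt79*, a keratin found in alveolar macrophages in mouse lung (-1.79 ± 0.40), *Cyp2a5*, a cytochrome P450 of the airways (-1.77 ± 0.37), and the chemokine scavenger *Ackr4* (-2.11 ± 0.41), whose overlapping genes held 614% of its counts.

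To follow cell types and pathways, 760 genes in 60 lists were examined, of which 723 were tested and 482 called, 367 higher and 115 lower. Counts of members called are given for each list, to be read against the 24.8% of all genes called higher and the 21.0% called lower. For members without overlap between groups, the share of all genes is 11.2% (1198 higher and 617 lower of 16221). The lists were written with earlier results of these data known, so a share above that of all genes is no independent support. In bulk lung RNA, fewer cells of a type and less RNA per cell cannot be told apart.

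**Figure D2:**
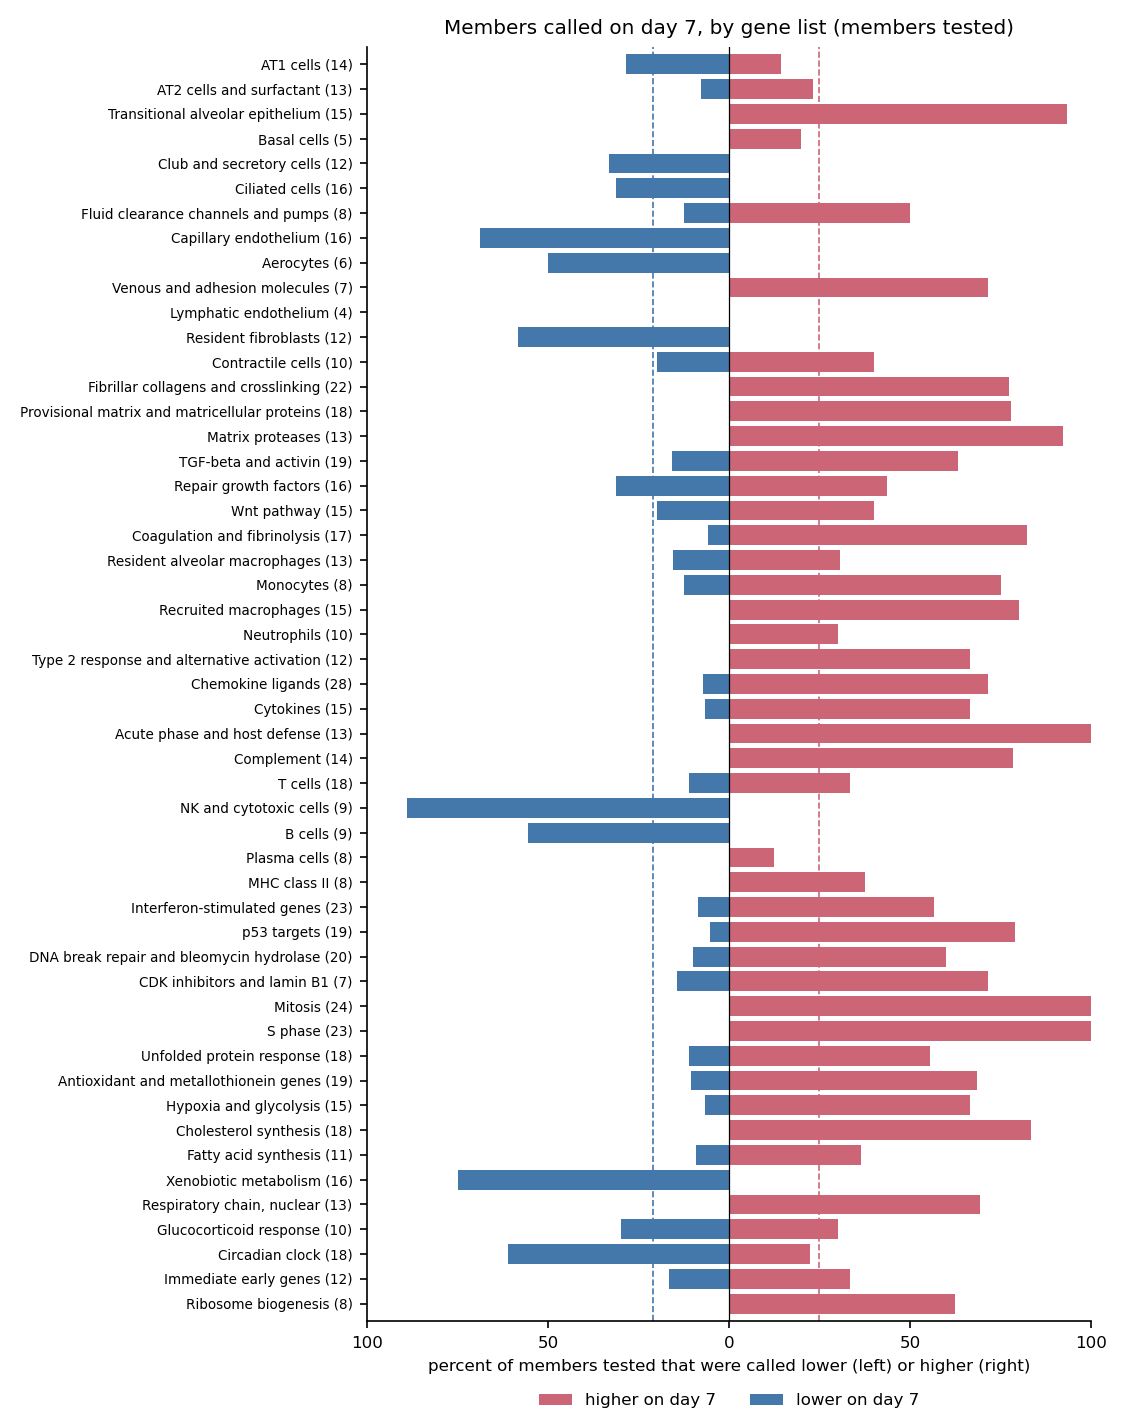
Bars show, for each list outside the markers of other tissues, the percent of members tested that were called higher (right, red) or lower (left, blue) on day 7, with the number tested in parentheses. Dashed lines mark the 24.8% higher and 21.0% lower among all genes, and the lists Mitosis, S phase and Acute phase and host defense reach 100% higher. The lists were chosen with earlier results of these data known.

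Genes listed for the transitional alveolar epithelium rose strongly, while most mature alveolar markers changed little. The list includes *Lgals3*, encoding galectin-3, which the paper describes as abundant in macrophages. Which cells of the bulk lung RNA gave the rise was not tested. Of 15 genes of the transitional alveolar epithelium, 14 rose and 0 fell (median log2FC 1.03). In 10 of them the 2 groups did not overlap, against 11.2% of all genes. *Krt8*, the keratin that marks this state, ranged 119 to 175 CPM (median 146) in CTRL mice and 220.5 to 392 CPM (median 292) on day 7 (log2FC 1.01 ± 0.12, adjusted p = 3.2e-10). *Cldn4*, a tight junction claudin, ranged 4.05 to 7.64 CPM (median 6.42) in CTRL mice and 29.8 to 58.1 CPM (median 49.9) on day 7 (log2FC 2.95 ± 0.36, adjusted p = 4.8e-10). *Sprr1a* showed the largest increase of the list. Every day 7 mouse was above every CTRL mouse for these 3 genes.

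AT1 and AT2 markers were called no more often than all genes, with 42.9% and 30.8% called against 45.8%. Of 14 AT1 genes, 2 rose and 4 fell, and the median log2FC was -0.13. *Ager*, the receptor that marks AT1 cells, ranged 1694 to 2537 CPM (median 2008) in CTRL mice and 1598 to 3134 CPM (median 1918) on day 7 (log2FC 0.011 ± 0.12, adjusted p = 0.95), so the groups overlapped almost fully. *Rtkn2*, an AT1 marker, had the largest decrease (log2FC -0.84 ± 0.18, adjusted p = 1.0e-04), *Igfbp2*, an insulin-like growth factor carrier, the largest increase (log2FC 0.69 ± 0.23, adjusted p = 0.013), and *Hopx*, a homeodomain regulator, fell slightly (log2FC -0.38 ± 0.15, adjusted p = 0.035), a call lost when any 1 of 7 mice was left out. The *Igfbp2* and *Hopx* calls were also lost without the 5 mice. Of 13 AT2 and surfactant genes, 3 rose and 1 fell. *Sftpc*, encoding surfactant protein C, ranged 12126 to 15394 CPM (median 13751) in CTRL mice and 9125 to 18613 CPM (median 11538) on day 7 (log2FC -0.24 ± 0.19, adjusted p = 0.31), and the lipid transporter gene *Abca3* had a log2FC of 0.043 ± 0.13 (adjusted p = 0.81). The collectin gene *Sftpd* rose (log2FC 0.62 ± 0.16, adjusted p = 0.0012), and *Etv5*, a transcription factor that maintains AT2 identity, fell (log2FC -0.45 ± 0.17, adjusted p = 0.023), although not without the 5 mice (adjusted p = 0.10).

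Airway epithelial genes were mostly lower or not called. Of 12 club and secretory genes, 0 rose and 4 fell, with 2 lower without the 5 mice. *Scgb1a1*, encoding the main club cell secretory protein, ranged 17908 to 24458 CPM (median 22821) in CTRL mice and 6253 to 18336 CPM (median 14105) on day 7 (log2FC -0.73 ± 0.23, adjusted p = 0.0064), a call lost without the 5 mice (adjusted p = 0.072), whereas *Scgb3a2* had a log2FC of -0.14 ± 0.26 (adjusted p = 0.69). The club cell monooxygenase gene *Cyp2f2* ranged 2197 to 3013 CPM (median 2479) in CTRL mice and 675 to 1447 CPM (median 1190.5) on day 7 (log2FC -1.18 ± 0.27, adjusted p = 3.0e-04), with no overlap between groups. Of 16 ciliated cell genes, 0 rose and 5 fell, and the number lower was 3 without any 1 of CTRL replicates 9 and 10 and day 7 replicates 3, 5 and 8, or without the 5 mice. *Tppp3*, a tubulin-binding protein, fell most (log2FC -1.20 ± 0.22, adjusted p = 1.2e-05), the ciliogenesis regulator *Foxj1* had a log2FC of 0.093 ± 0.17 (adjusted p = 0.69), and *Dnah5*, an axonemal dynein, was called (log2FC -0.61 ± 0.26, adjusted p = 0.044) but not after 12 of the 20 mice were each left out in turn. Among 5 basal cell genes, 1 was called, *Ngfr* (log2FC 1.03 ± 0.26, adjusted p = 7.5e-04). *Krt5* was close to 0, with 0 to 0.0955 CPM (median 0) in CTRL mice and 0 to 0.0923 CPM (median 0) on day 7, and *Trp63*, the basal cell master regulator, had a log2FC of 0.71 ± 0.35 (adjusted p = 0.09).

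Ion channels and pumps that clear alveolar fluid changed little in size. Of 8 genes, 4 rose and 1 fell. The epithelial sodium channel subunit genes *Scnn1a* and *Scnn1b* were not called, with log2FC of 0.19 ± 0.13 and -0.13 ± 0.09 (adjusted p = 0.24 and 0.28). The amino acid transporter gene *Slc6a14* rose (log2FC 0.39 ± 0.13, adjusted p = 0.0084), and the chloride channel gene *Cftr* fell (log2FC -0.69 ± 0.22, adjusted p = 0.0092).

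DNA damage response genes rose together in all day 7 mice. The p53 protein induces its target genes after DNA strand breaks, among them a cell cycle inhibitor and the ligase that degrades p53 itself. Of 19 p53 targets, 15 rose and 1 fell (median log2FC 0.89). The mean over these genes was 0.86 to 1.09 log2 units above the CTRL mean in the 10 day 7 mice, against -0.10 to 0.19 in CTRL mice. *Cdkn1a*, the p21 cell cycle inhibitor, ranged 22.6 to 49.3 CPM (median 30.8) in CTRL mice and 234 to 425 CPM (median 278) on day 7 (log2FC 3.20 ± 0.16, adjusted p = 1.4e-27). *Gdf15*, a stress hormone, rose most, with 0.593 to 1.71 CPM (median 1.0002) in CTRL mice and 6.62 to 13.9 CPM (median 11.6) on day 7 (log2FC 3.37 ± 0.21). The ligase gene *Mdm2* rose less (log2FC 0.59 ± 0.06, adjusted p = 5.5e-12), and the stress gene *Sesn1* fell (log2FC -0.32 ± 0.07, adjusted p = 7.5e-05).

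Of 20 genes of DNA break repair and bleomycin hydrolase, 12 rose and 2 fell. *Blmh*, encoding bleomycin hydrolase, ranged 52.6 to 59.6 CPM (median 57.1) in CTRL mice and 60.6 to 75.995 CPM (median 66.2) on day 7 (log2FC 0.23 ± 0.05, adjusted p = 1.6e-04). The damage kinase gene *Atm* was lower (log2FC -0.34 ± 0.14, adjusted p = 0.043), a call lost without the 5 mice and when any 1 of 8 mice was left out. Among 7 CDK inhibitors and lamin B1, 5 rose and 1 fell, with 3 higher without day 7 replicate 3 or without the 5 mice. The nuclear lamina gene *Lmnb1* rose (log2FC 0.97 ± 0.12, adjusted p = 9.7e-10), the quiescence inhibitor *Cdkn1b* fell (log2FC -0.55 ± 0.08, adjusted p = 7.2e-08), and *Cdkn2a*, at 0.0928 to 1.13 CPM (median 0.415) in CTRL mice and 0.102 to 1.87 CPM (median 0.800) on day 7, was called (log2FC 0.95 ± 0.40, adjusted p = 0.047) but not after any 1 of 10 mice was left out.

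Proliferation genes rose without exception on day 7. All 24 mitosis genes were called higher (median log2FC 1.86), in 23 of them without overlap between groups, against 11.2% of all genes. The 23 S phase genes were all called higher as well (median 1.13). *Mki67*, the standard proliferation marker, ranged 11.4 to 28.3 CPM (median 18.7) in CTRL mice and 40.1 to 91.5 CPM (median 68.1) on day 7 (log2FC 1.79 ± 0.24, adjusted p = 8.7e-09). *Ccnb1*, the cyclin of mitotic entry, ranged 0.380 to 2.29 CPM (median 1.21) in CTRL mice and 4.32 to 9.90 CPM (median 7.46) on day 7 (log2FC 2.59 ± 0.29, adjusted p = 3.6e-11). *Mcm2*, a subunit of the replicative helicase, rose 1.69-fold (log2FC 0.75 ± 0.12, adjusted p = 3.7e-07), the ribonucleotide reductase subunit *Rrm2* rose 3.62-fold (log2FC 1.86 ± 0.21) and thymidine kinase *Tk1* 4.05-fold (log2FC 2.02 ± 0.21). Per mouse, the mean of the mitosis list lay 1.17 to 2.13 log2 units above CTRL, so the 10 mice differed among themselves by about 1 unit.

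**Figure D3:**
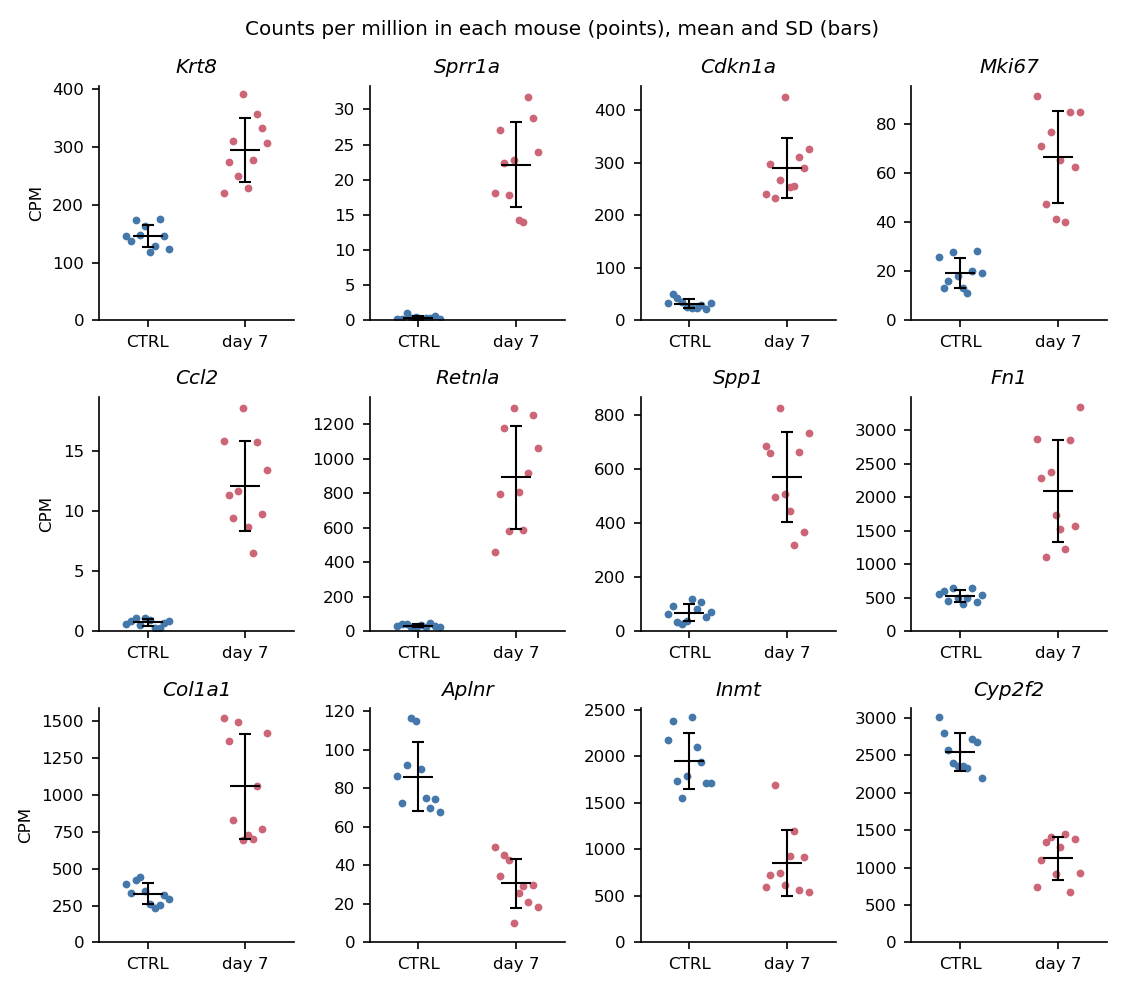
Each point is the CPM of 1 mouse, for 12 genes in 10 CTRL (blue) and 10 day 7 mice (red), with the mean and SD as black bars. In each panel but *Inmt* the 2 groups do not overlap, with *Aplnr* and *Cyp2f2* lower and the other 9 genes higher on day 7. Among all genes tested, 11.2% did not overlap.

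Because mitosis genes rose together, their promoters were read from the RefSeq promoter table for GRCm38.p6, from 250 bases before to 50 after the transcription start. The cell cycle homology region (CHR), searched as TTTGAA or TTCGAA on both strands, stood in 16 of 20 mitosis genes with a promoter in the table (80.0%), against 21.7% of 27025 genes. The NF-Y box, searched as CCAAT on both strands, stood in 18 of these 20 genes (90.0%) against 41.1%. These promoters show the motif in the first 4 called members that hold it, with every CHR match in capitals and the transcription start after base 250. They lie at chr7:135716330-135716629, minus strand, at chr11:99024140-99024439, minus strand, at chr9:70421505-70421804, minus strand, and at chr10:69352863-69353162, minus strand.
Mki67: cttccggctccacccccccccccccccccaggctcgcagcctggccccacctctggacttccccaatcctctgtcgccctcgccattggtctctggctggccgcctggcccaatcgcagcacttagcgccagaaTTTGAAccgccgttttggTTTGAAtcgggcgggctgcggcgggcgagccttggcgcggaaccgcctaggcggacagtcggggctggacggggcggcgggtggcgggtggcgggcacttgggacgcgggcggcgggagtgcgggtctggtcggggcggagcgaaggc
Top2a: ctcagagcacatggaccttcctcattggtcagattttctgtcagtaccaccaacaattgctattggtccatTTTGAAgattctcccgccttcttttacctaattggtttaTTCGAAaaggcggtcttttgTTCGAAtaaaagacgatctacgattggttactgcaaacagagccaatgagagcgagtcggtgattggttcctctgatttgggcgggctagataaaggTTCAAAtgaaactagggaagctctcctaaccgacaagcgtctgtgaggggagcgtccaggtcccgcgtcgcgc
Ccnb2: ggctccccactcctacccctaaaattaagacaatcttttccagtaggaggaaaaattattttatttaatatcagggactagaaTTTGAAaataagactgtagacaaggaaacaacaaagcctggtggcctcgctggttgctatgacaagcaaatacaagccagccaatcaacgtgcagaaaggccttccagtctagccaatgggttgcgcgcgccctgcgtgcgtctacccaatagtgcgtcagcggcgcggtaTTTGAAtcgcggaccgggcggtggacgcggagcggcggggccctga
Cdk1: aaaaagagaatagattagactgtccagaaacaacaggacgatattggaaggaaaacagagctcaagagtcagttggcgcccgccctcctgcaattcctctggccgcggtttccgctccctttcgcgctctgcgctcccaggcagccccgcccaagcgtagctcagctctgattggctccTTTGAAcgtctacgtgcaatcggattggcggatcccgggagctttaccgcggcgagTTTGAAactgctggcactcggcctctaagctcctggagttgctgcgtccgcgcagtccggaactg

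The E2F motif, searched as TTTNNCGC on both strands, stood in 9 of the 17 S phase genes with a promoter in the table (52.9%), against 5.93% of all genes. A match is a description of letters in this window, and binding was not measured. The shares cover list members whether called or not, so they do not bear on the day 7 change.

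**Figure D4:**
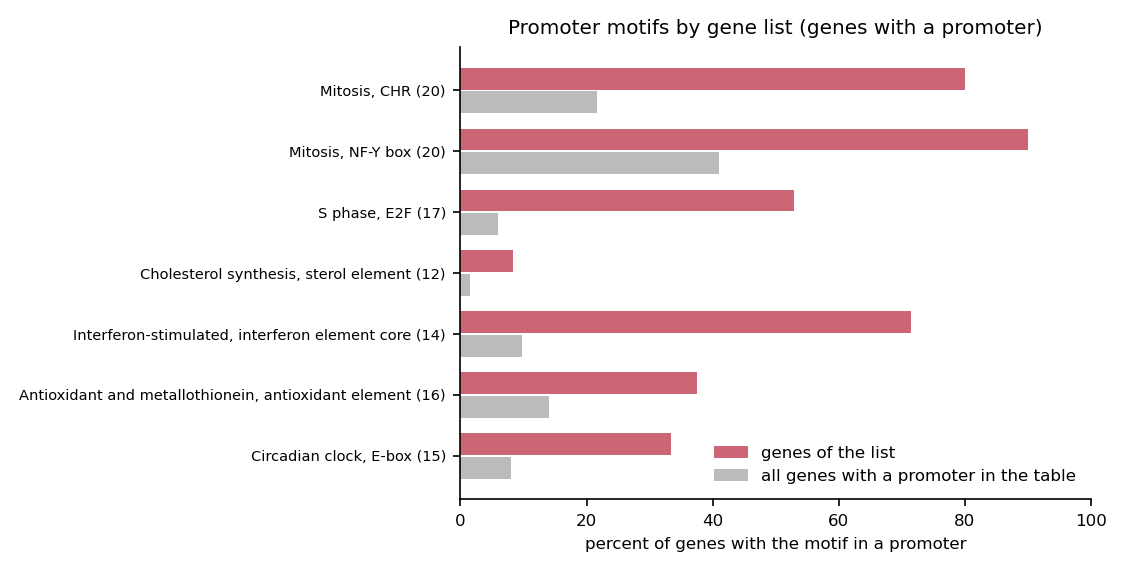
Bars give the percent of genes with a motif in a promoter of 300 bases, for the genes of 7 list and motif pairs (red, number with a promoter in parentheses) and for all 27025 genes with a promoter in the table (grey). The list share exceeds the grey share in each pair, for example 80.0% against 21.7% for the CHR and 52.9% against 5.93% for the E2F motif. For the sterol element it rests on 1 of 12 genes.

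Chemokine and cytokine genes mostly rose. Of 28 chemokine ligands tested, 20 rose and 2 fell (median log2FC 1.77). *Ccl2* ranged 0.286 to 1.15 CPM (median 0.783) in CTRL mice and 6.53 to 18.6 CPM (median 11.5) on day 7, and *Cxcl5*, an epithelial chemokine for neutrophils, 0 to 0.475 CPM (median 0.201) in CTRL mice and 0.555 to 5.81 CPM (median 0.936) on day 7 (log2FC 2.66 ± 0.49, adjusted p = 9.3e-06). *Ppbp*, a platelet chemokine, fell (log2FC -1.10 ± 0.30, adjusted p = 0.0022), although not without the 5 mice (adjusted p = 0.054). Of 15 cytokines, 10 rose and 1 fell. *Il6* stayed low, with 0 to 0.407 CPM (median 0.154) in CTRL mice and 0.480 to 2.83 CPM (median 1.197) on day 7 (log2FC 2.90 ± 0.59, adjusted p = 4.3e-05). *Lif*, of the same cytokine family, ranged 2.58 to 6.59 CPM (median 4.42) in CTRL mice and 18.5 to 41.7 CPM (median 24.9) on day 7 (log2FC 2.53 ± 0.22), and *Clcf1*, another member, fell (log2FC -0.37 ± 0.11, adjusted p = 0.0059).

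All 13 acute phase and host defense genes tested rose (median log2FC 2.43). *Lcn2*, a siderophore-binding protein of injured epithelium, ranged 60.3 to 124 CPM (median 81.2) in CTRL mice and 425 to 621 CPM (median 506) on day 7 (log2FC 2.60 ± 0.23, adjusted p = 1.7e-14). Genes of the *Saa* and *Orm* families share near-identical copies, so reads could have been split among them. Of 14 complement genes, 11 rose and 0 fell. *C3*, the central component, ranged 667 to 1066 CPM (median 844) in CTRL mice and 949.7 to 1640.2 CPM (median 1382) on day 7 (log2FC 0.65 ± 0.13, adjusted p = 4.7e-05), *C3ar1*, the receptor for its cleavage product, rose most (log2FC 2.33 ± 0.29, adjusted p = 1.1e-09), and factor B, *Cfb*, was low in both groups (log2FC 1.45 ± 0.35, adjusted p = 5.1e-04). *Cfd*, known as adipsin, was not called (log2FC 2.03 ± 0.99, adjusted p = 0.085), with up to 593 CPM in day 7 replicate 8, the mouse with raised adipose genes, and it is named here after its values were seen.

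Genes of recruited macrophages rose, and those of resident alveolar macrophages were called about as often as all genes. Of 15 genes of recruited macrophages, 12 rose and 0 fell (median log2FC 2.02), 11 without overlap, against 11.2% of all genes. *Spp1*, encoding osteopontin, ranged 26.99 to 122 CPM (median 66.8) in CTRL mice and 320.4 to 827 CPM (median 585) on day 7 (log2FC 3.04 ± 0.49, adjusted p = 6.0e-07). *Trem2*, a lipid-sensing receptor, ranged 2.08 to 3.90 CPM (median 2.94) in CTRL mice and 15.8 to 35.6 CPM (median 25.7) on day 7 (log2FC 3.06 ± 0.29, adjusted p = 1.2e-13), and *Mmp12*, macrophage elastase, 4.22 to 15.3 CPM (median 5.84) in CTRL mice and 34.2 to 79.2 CPM (median 59.4) on day 7 (log2FC 3.11 ± 0.42, adjusted p = 8.9e-09). Of 8 monocyte genes, 6 rose and 1 fell. The receptor for *Ccl2*, *Ccr2*, ranged 40.2 to 76.6 CPM (median 51.7) in CTRL mice and 70.2 to 136 CPM (median 109.9) on day 7 (log2FC 0.95 ± 0.16, adjusted p = 2.5e-06), whereas *Ly6c2*, a surface marker of inflammatory monocytes, had a log2FC of 0.077 ± 0.17 (adjusted p = 0.73). The largest increase of that list, *Fn1*, is also a fibroblast gene.

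Among 13 genes of resident alveolar macrophages, 4 rose and 2 fell, so 46.2% were called against 45.8% of all genes. The lectin gene *Siglecf* ranged 7.45 to 12.1 CPM (median 9.44) in CTRL mice and 6.598 to 13.96 CPM (median 8.93) on day 7 (log2FC -0.081 ± 0.19, adjusted p = 0.75). *Marco*, a scavenger receptor, ranged 4.21 to 13.7 CPM (median 6.91) in CTRL mice and 21.1 to 43.4 CPM (median 30.4) on day 7 (log2FC 2.03 ± 0.46, adjusted p = 2.4e-04), and *Krt79* was lower, with 13.95 to 24.6 CPM (median 17.7) in CTRL mice and 1.33 to 8.9995 CPM (median 4.60) on day 7. Lavage before excision removes many of these cells in both groups, and its yield was not measured here.

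Of 10 neutrophil genes tested, 3 rose and 0 fell. *S100a8* ranged 7.55 to 26.7 CPM (median 16.6) in CTRL mice and 7.99 to 28.4 CPM (median 11.2) on day 7 (log2FC -0.27 ± 0.33, adjusted p = 0.52). *S100a9* ranged 10.6 to 38.1 CPM (median 25.2) in CTRL mice and 11.2 to 38.4 CPM (median 14.7) on day 7 (log2FC -0.39 ± 0.34, adjusted p = 0.36). *Ltf*, encoding lactoferrin, which airway glands also make, rose (log2FC 1.69 ± 0.51, adjusted p = 0.0046), and the defining markers *Ly6g* and *Camp* were too low to be tested.

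The type 2 response is started in the lung by epithelial alarmins and drives alternative activation of macrophages. Of 12 genes tested, 8 rose and 0 fell. The alarmin *Il33* ranged 94.2 to 128 CPM (median 102) in CTRL mice and 168 to 299 CPM (median 254) on day 7 (log2FC 1.21 ± 0.24, adjusted p = 2.3e-05). *Il5* and *Il13*, cytokines of type 2 lymphocytes, were too low to be tested, with at most 0.408 CPM in any of the 20 mice.

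NK cell genes fell, whereas 44.4% of T cell genes were called in either direction, against 45.8% of all genes. Of 9 NK and cytotoxic genes, 0 rose and 8 fell. *Ncr1*, an NK cell receptor, ranged 4.09 to 6.92 CPM (median 5.49) in CTRL mice and 1.39 to 4.34 CPM (median 2.19) on day 7 (log2FC -1.15 ± 0.31, adjusted p = 0.0015), and *Gzmb*, granzyme B, 3.11 to 5.97 CPM (median 4.13) in CTRL mice and 1.29 to 4.58 CPM (median 2.08) on day 7 (log2FC -0.87 ± 0.23, adjusted p = 0.0015), and for both genes the groups overlapped. Of 18 T cell genes, 6 rose and 2 fell. *Cd3e*, the pan T cell marker, had a log2FC of -0.23 ± 0.23 (adjusted p = 0.42), while *Pdcd1*, encoding PD-1, rose, with 0.0955 to 0.730 CPM (median 0.269) in CTRL mice and 0.646 to 2.34 CPM (median 1.13) on day 7 (log2FC 2.00 ± 0.44). *Foxp3*, the regulator of regulatory T cells, was higher as well (log2FC 1.59 ± 0.45, adjusted p = 0.0031), with overlapping genes at 205% of its counts. *Lef1*, of naive T cells, fell (log2FC -0.53 ± 0.18, adjusted p = 0.012), and without the 5 mice 0 T cell genes were lower.

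B cell genes were lower but with wide spread in CTRL mice. Of 9 genes, 0 rose and 5 fell. *Ms4a1*, encoding CD20, ranged 23.4 to 49.999 CPM (median 32.002) in CTRL mice and 12.5 to 26.8 CPM (median 20.6) on day 7 (log2FC -0.79 ± 0.33, adjusted p = 0.039). The number lower fell to 2 without CTRL replicate 5 or 9, to 3 without CTRL replicate 6 or day 7 replicate 2, 5, 7 or 9, and to 1 without the 5 mice, which include the mice with the highest thymus genes. Of 8 plasma cell genes, 1 rose, *Sdc1* (log2FC 0.46 ± 0.07, adjusted p = 7.0e-07), which epithelia also express, and *Jchain*, the joining chain of antibodies, had a log2FC of 0.41 ± 0.58 (adjusted p = 0.58). *Mzb1*, a chaperone of plasma cells, did not pass the filter on low counts and was not tested. Of 8 MHC class II genes, 3 rose, with 1 higher without day 7 replicate 4 or the 5 mice and 5 without day 7 replicate 5. *H2-DMb1*, of peptide loading, rose most (log2FC 0.55 ± 0.12, adjusted p = 2.0e-04), and *H2-Aa* and the master regulator *Ciita* had log2FC of 0.30 ± 0.16 (adjusted p = 0.11) and 0.26 ± 0.19 (adjusted p = 0.28).

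Interferon-stimulated genes, which restrict viral replication, rose moderately. Of 23 genes, 13 rose and 2 fell (median log2FC 0.35). The ubiquitin-like protein gene *Isg15* ranged 5.44 to 10.9 CPM (median 7.11) in CTRL mice and 12.2 to 22.4 CPM (median 18.3) on day 7 (log2FC 1.200 ± 0.20, adjusted p = 1.7e-06), *Ifit1*, which binds foreign RNA, 19.5 to 31.7 CPM (median 22.1) in CTRL mice and 33.8 to 45.5 CPM (median 37.03) on day 7 (log2FC 0.76 ± 0.19, adjusted p = 6.6e-04). *Ifi27l2a* had the largest increase (log2FC 1.46 ± 0.28, adjusted p = 1.4e-05), and the guanylate-binding protein *Gbp3* fell (log2FC -0.47 ± 0.12, adjusted p = 0.0015). The core of the interferon response element, searched as GAAANNGAA on both strands, stood in 10 of the 14 genes of the list with a promoter in the table (71.4%), against 9.76% of all genes. The first 4 called members that hold it are shown to show how the element stands in genes of the list, with each match in capitals. They lie at chr4:156200769-156201068, minus strand, at chr19:34640639-34640938, plus strand, at chr12:26456403-26456702, minus strand, and at chr5:120907476-120907775, minus strand.
Isg15: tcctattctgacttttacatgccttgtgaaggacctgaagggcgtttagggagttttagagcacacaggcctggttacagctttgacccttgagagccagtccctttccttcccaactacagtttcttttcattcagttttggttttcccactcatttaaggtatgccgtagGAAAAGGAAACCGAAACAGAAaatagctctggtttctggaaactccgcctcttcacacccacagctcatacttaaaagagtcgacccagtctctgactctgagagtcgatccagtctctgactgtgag
Ifit1: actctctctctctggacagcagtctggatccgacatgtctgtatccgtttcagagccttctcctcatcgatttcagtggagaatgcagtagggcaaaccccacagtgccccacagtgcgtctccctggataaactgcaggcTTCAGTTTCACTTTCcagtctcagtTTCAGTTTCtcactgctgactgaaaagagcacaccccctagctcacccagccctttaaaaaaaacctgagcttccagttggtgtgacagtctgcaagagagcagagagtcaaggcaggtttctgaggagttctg
Rsad2: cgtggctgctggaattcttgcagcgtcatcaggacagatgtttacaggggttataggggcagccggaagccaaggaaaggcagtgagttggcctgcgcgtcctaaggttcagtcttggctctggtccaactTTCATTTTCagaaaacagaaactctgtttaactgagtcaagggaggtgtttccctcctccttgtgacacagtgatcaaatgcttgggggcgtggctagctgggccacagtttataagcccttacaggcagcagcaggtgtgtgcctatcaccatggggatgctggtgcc
Oas1a: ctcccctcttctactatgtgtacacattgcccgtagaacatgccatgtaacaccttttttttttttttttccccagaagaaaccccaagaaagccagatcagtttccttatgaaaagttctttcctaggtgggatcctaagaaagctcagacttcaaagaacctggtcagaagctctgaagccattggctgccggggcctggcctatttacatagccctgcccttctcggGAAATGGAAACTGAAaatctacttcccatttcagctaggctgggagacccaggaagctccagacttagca

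Matrix genes had already risen on day 7. Of 22 genes of fibrillar collagens and crosslinking, 17 rose and 0 fell (median log2FC 0.89). *Col1a1*, a chain of type I collagen, ranged 233 to 443 CPM (median 325) in CTRL mice and 692 to 1525 CPM (median 944) on day 7 (log2FC 1.68 ± 0.33, adjusted p = 2.2e-05). *Col3a1*, of type III collagen, ranged 449.9 to 869 CPM (median 621) in CTRL mice and 1445 to 2917 CPM (median 2049) on day 7 (log2FC 1.73 ± 0.19, adjusted p = 2.6e-11), and the prolyl hydroxylase gene *P4ha3* had the largest increase (log2FC 2.36 ± 0.40, adjusted p = 1.9e-06). Of 18 genes of provisional matrix and matricellular proteins, 14 rose and 0 fell (median 1.39). Fibronectin, *Fn1*, ranged 405 to 654 CPM (median 522) in CTRL mice and 1116 to 3350.03 CPM (median 2012) on day 7 (log2FC 1.98 ± 0.34, adjusted p = 3.0e-06), and tenascin C, *Tnc*, 16.5 to 40.9 CPM (median 26.6) in CTRL mice and 134 to 400.04 CPM (median 236) on day 7 (log2FC 3.13 ± 0.39, adjusted p = 1.3e-09). The groups did not overlap for these genes.

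Of 13 matrix proteases, 12 rose and 0 fell (median log2FC 1.49). The gelatinase *Mmp2* ranged 79.2 to 133 CPM (median 109) in CTRL mice and 184 to 448 CPM (median 291) on day 7 (log2FC 1.52 ± 0.14, adjusted p = 4.9e-14). Stromelysin *Mmp10* had the largest fitted increase, from near 0, with 0 to 1 counts in CTRL mice and 2 to 15 on day 7, so its fold depends on the prior count.

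TGF-beta is the main profibrotic cytokine, and the activins are related ligands. Of 19 genes, 12 rose and 3 fell. *Tgfb1* ranged 60.97 to 85.6 CPM (median 76.96) in CTRL mice and 75.8 to 113 CPM (median 93.1) on day 7 (log2FC 0.24 ± 0.09, adjusted p = 0.021), a call lost without day 7 replicate 4 and without the 5 mice. *Inhba*, encoding the activin A subunit, ranged 1.81 to 3.87 CPM (median 2.87) in CTRL mice and 5.57 to 16.3 CPM (median 11.1) on day 7 (log2FC 2.01 ± 0.56, adjusted p = 0.0021), and *Fst*, encoding the activin antagonist follistatin, 3.52 to 11.7 CPM (median 5.35) in CTRL mice and 18.6 to 50.9 CPM (median 33.6) on day 7 (log2FC 2.49 ± 0.56, adjusted p = 1.9e-04). The inhibitory *Smad6* fell (log2FC -0.57 ± 0.20, adjusted p = 0.014).

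Growth factors for epithelial repair moved in both directions. Of 16 genes, 7 rose and 5 fell. The EGF receptor ligands amphiregulin, *Areg*, and epiregulin, *Ereg*, ranged 1.81 to 14.5 CPM (median 5.77) in CTRL mice and 12.2 to 21.3 CPM (median 15.2) on day 7 (log2FC 1.14 ± 0.23, adjusted p = 4.4e-05) and 0 to 0.626 CPM (median 0.241) in CTRL mice and 2.40 to 8.80 CPM (median 5.04) on day 7 (log2FC 4.05 ± 0.76, adjusted p = 1.2e-05). The fibroblast ligand *Fgf7* fell (log2FC -0.47 ± 0.11, adjusted p = 4.7e-04), as did *Fgfr2*, which encodes its receptor (log2FC -0.86 ± 0.15, adjusted p = 1.7e-06). Of 15 Wnt pathway genes, 6 rose and 3 fell, with 1 lower without day 7 replicate 5. *Wnt10a* rose most, with 0 to 0.278 CPM (median 0.0956) in CTRL mice and 0.288 to 1.66 CPM (median 1.13) on day 7 (log2FC 3.14 ± 0.75), and *Wnt5a* less (log2FC 0.52 ± 0.10, adjusted p = 4.1e-05). *Wnt2* and *Wnt3a* were lower (log2FC -0.44 ± 0.16 and -0.50 ± 0.20), calls that were lost when any 1 of 2 and of 8 mice was left out.

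Genes of coagulation and fibrinolysis, the formation and breakdown of fibrin, mostly rose. Of 17 genes, 14 rose and 1 fell. Tissue factor, *F3*, which starts clotting, ranged 62.6 to 83.7 CPM (median 72.5) in CTRL mice and 90.5 to 355 CPM (median 112) on day 7 (log2FC 0.91 ± 0.19, adjusted p = 5.9e-05). The fibrinogen gene *Fgg* had the largest increase, with 0 to 0.859 CPM (median 0.452) in CTRL mice and 1.16 to 11.3 CPM (median 2.04) on day 7 (log2FC 2.77 ± 0.47), and the endothelial anticoagulant *Thbd* fell (log2FC -0.69 ± 0.14, adjusted p = 5.0e-05).

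Resident mesenchymal genes were lower while some contractile genes were higher. Of 12 genes of resident fibroblasts, 0 rose and 7 fell (median log2FC -0.47). *Tcf21*, a transcription factor of lipofibroblasts, ranged 86.8 to 142 CPM (median 115) in CTRL mice and 55.8 to 104 CPM (median 77.05) on day 7 (log2FC -0.61 ± 0.19, adjusted p = 0.0058), *Npnt*, a matrix ligand of the alveolar wall, fell (log2FC -0.55 ± 0.15, adjusted p = 0.0013), and the transporter *Slc7a10* fell most (log2FC -1.39 ± 0.47, adjusted p = 0.012), with overlapping genes at 133% of its counts. Of 10 contractile genes, 4 rose and 2 fell. *Acta2*, smooth muscle actin, had a median of 222 CPM in CTRL mice and 311 CPM on day 7, with overlapping groups (log2FC 0.52 ± 0.16, adjusted p = 0.0065), *Actg2* rose most (log2FC 0.71 ± 0.17, adjusted p = 4.4e-04), *Synpo2* fell most (log2FC -0.43 ± 0.13, adjusted p = 0.0049), and the smooth muscle myosin *Myh11* had a log2FC of -0.23 ± 0.11 (adjusted p = 0.091).

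Capillary endothelial genes were lower, whereas adhesion molecules for leukocytes were higher. Of 16 capillary genes, 0 rose and 11 fell (median log2FC -0.48). *Aplnr*, the apelin receptor of general capillaries, ranged 67.8 to 116 CPM (median 80.8) in CTRL mice and 10.03 to 49.4 CPM (median 29.7) on day 7 (log2FC -1.49 ± 0.26, adjusted p = 2.4e-06), and its ligand *Apln*, of aerocytes, 48.7 to 80.5 CPM (median 59.5) in CTRL mice and 14.05 to 47.5 CPM (median 22.8) on day 7 (log2FC -1.20 ± 0.22, adjusted p = 6.9e-06). Neither gene overlapped between groups. *Gpihbp1* and *Cldn5* were not called (log2FC 0.085 ± 0.13, adjusted p = 0.63, and -0.19 ± 0.18, adjusted p = 0.38). Of 6 aerocyte genes, 3 fell, among them the endothelin receptor *Ednrb* (log2FC -0.73 ± 0.26, adjusted p = 0.017, lost without the 5 mice), while *Car4* had a log2FC of -0.30 ± 0.17 (adjusted p = 0.14).

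Of 7 venous and adhesion genes, 5 rose and 0 fell, with 3 higher without the 5 mice. P-selectin, *Selp*, ranged 4.30 to 7.16 CPM (median 6.01) in CTRL mice and 9.70 to 22.2 CPM (median 15.8) on day 7 (log2FC 1.47 ± 0.30, adjusted p = 4.5e-05), E-selectin, *Sele*, 0.938 to 2.01 CPM (median 1.63) in CTRL mice and 1.30 to 4.80 CPM (median 2.63) on day 7 (log2FC 0.94 ± 0.27, adjusted p = 0.0035), and *Ackr1*, the chemokine receptor of venules, 0 to 0.395 CPM (median 0.183) in CTRL mice and 0.672 to 4.50 CPM (median 2.25) on day 7 (log2FC 3.56 ± 0.64). The lymphatic regulator *Prox1* and *Lyve1* were not called (adjusted p = 0.64 and 0.15), nor was any of the 4 lymphatic genes by edgeR at an adjusted p under 0.05. At an unadjusted p under 0.05 0 were called as well, and by DESeq2 0.

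Cholesterol synthesis genes rose and genes of xenobiotic metabolism fell. Of 18 cholesterol synthesis genes, 15 rose and 0 fell (median log2FC 0.60). *Sqle*, encoding squalene epoxidase, ranged 38.3 to 61.6 CPM (median 50.1) in CTRL mice and 70.9 to 138 CPM (median 85.6) on day 7 (log2FC 0.82 ± 0.11, adjusted p = 3.0e-09), and the groups did not overlap. The demethylase gene *Cyp51* had the largest increase (log2FC 1.03 ± 0.10, adjusted p = 6.4e-13), with an overlapping gene at 174% of its counts. The sterol element TCACNCCAC stood in 1 of the 12 genes of the list with a promoter in the table (8.33%), against 1.44% of all genes. Of 11 fatty acid synthesis genes, 4 rose and 1 fell. The desaturase *Scd1* ranged 797 to 1910.3 CPM (median 1266) in CTRL mice and 1534 to 4052 CPM (median 2355) on day 7 (log2FC 0.99 ± 0.20, adjusted p = 3.7e-05), the synthase *Fasn* had a log2FC of 0.38 ± 0.17 (adjusted p = 0.057), and *Srebf1*, which regulates both, was lower (log2FC -0.22 ± 0.08, adjusted p = 0.016).

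Of 16 genes of xenobiotic metabolism, 0 rose and 12 fell (median log2FC -0.59), with 5 lower without the 5 mice. *Cyp2a5* fell most, and *Cyp1a1*, the target of the aryl hydrocarbon receptor, ranged 12.1 to 24.8 CPM (median 14.7) in CTRL mice and 2.77 to 10.4 CPM (median 5.001) on day 7 (log2FC -1.47 ± 0.54, adjusted p = 0.02), a call lost without the 5 mice (adjusted p = 0.10). Several genes of this list are expressed by club cells, whose markers were lower as well, and the part of these cells in the result was not tested.

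Oxidative and other stress programmes rose in part. Of 19 antioxidant and metallothionein genes, 13 rose and 2 fell. Metallothionein *Mt2*, a metal-binding protein, ranged 8.41 to 13.04 CPM (median 9.35) in CTRL mice and 32.3 to 339.7 CPM (median 66.6) on day 7 (log2FC 3.24 ± 0.51, adjusted p = 3.3e-07), and heme oxygenase *Hmox1* 23.1 to 37.5 CPM (median 30.02) in CTRL mice and 45.9 to 102 CPM (median 62.3) on day 7 (log2FC 1.13 ± 0.20, adjusted p = 4.0e-06). The quinone reductase gene *Nqo1* had a log2FC of -0.051 ± 0.15 (adjusted p = 0.81), and the glutathione transferase *Gstm1* fell (log2FC -0.78 ± 0.17, adjusted p = 1.5e-04). The antioxidant element TGACNNNGC stood in 6 of the 16 genes of the list with a promoter in the table (37.5%), against 14.0% of all genes.

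Of 18 genes of the unfolded protein response, 10 rose and 2 fell. The chaperone *Hspa5* rose slightly (log2FC 0.43 ± 0.08, adjusted p = 2.0e-05), *Sdf2l1* most (log2FC 1.19 ± 0.14, adjusted p = 8.3e-11), and *Herpud1*, of endoplasmic reticulum degradation, fell (log2FC -0.56 ± 0.08, adjusted p = 2.2e-08). *Ddit3* was lower (log2FC -0.28 ± 0.11, adjusted p = 0.03), a call lost when any 1 of 3 mice was left out. Of 15 hypoxia and glycolysis genes, 10 rose and 1 fell. Lactate dehydrogenase *Ldha* rose (log2FC 0.66 ± 0.10, adjusted p = 3.1e-07), as did the vasodilator *Adm* (log2FC 1.15 ± 0.33, adjusted p = 0.0034, lost without day 7 replicate 5), *Pdk1* fell (log2FC -0.49 ± 0.08, adjusted p = 3.0e-06), and the glucose transporter *Slc2a1* had a log2FC of 0.42 ± 0.19 (adjusted p = 0.065). Of 13 nuclear genes of the respiratory chain, 9 rose and 0 fell, with the oxidase subunit *Cox5a* highest (log2FC 0.70 ± 0.09, adjusted p = 9.1e-09) whereas the mitochondrial regulator *Ppargc1a* (log2FC -0.23 ± 0.17, adjusted p = 0.25) and *Ndufs1* of complex I (log2FC 0.11 ± 0.06, adjusted p = 0.12) were not called. Of 8 ribosome biogenesis genes, 5 rose, among them nucleolin, *Ncl* (log2FC 0.32 ± 0.07, adjusted p = 6.7e-05), nucleophosmin, *Npm1* (log2FC 0.29 ± 0.09, adjusted p = 0.0045), and *Nop58* (log2FC 0.61 ± 0.11, adjusted p = 2.3e-06).

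Circadian clock genes differed widely between the groups. Mice were killed by group on set days, and the day and hour of dissection cannot be told apart from treatment. Of 18 genes, 4 rose and 11 fell. *Dbp*, an output of the clock, ranged 138 to 356 CPM (median 255) in CTRL mice and 27.5 to 216 CPM (median 74.2) on day 7 (log2FC -1.36 ± 0.29, adjusted p = 1.0e-04), *Arntl*, encoding the activator BMAL1, 2.76 to 5.57 CPM (median 3.45) in CTRL mice and 3.17 to 12.5 CPM (median 5.79) on day 7 (log2FC 0.92 ± 0.29, adjusted p = 0.0076), and *Nfil3*, a repressor of the same sites as *Dbp*, 2.66 to 5.11 CPM (median 4.13) in CTRL mice and 6.09 to 27.2 CPM (median 10.7) on day 7 (log2FC 1.54 ± 0.32, adjusted p = 6.0e-05). The E-box CACGTG stood in 5 of the 15 genes of the list with a promoter in the table (33.3%), against 8.09% of all genes.

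Of 10 glucocorticoid response genes, 3 rose and 3 fell. The cochaperone *Fkbp5* ranged 28.4 to 70.8 CPM (median 51.96) in CTRL mice and 64.5 to 268 CPM (median 128) on day 7 (log2FC 1.43 ± 0.34, adjusted p = 4.4e-04), and *Klf9*, which the clock also drives, fell (log2FC -0.71 ± 0.13, adjusted p = 6.0e-06). *Tsc22d3*, known as GILZ, was lower (log2FC -0.42 ± 0.16, adjusted p = 0.024), a call lost when any 1 of 3 mice was left out. Of 12 immediate early genes, 4 rose and 2 fell. *Myc* ranged 5.71 to 8.50 CPM (median 6.75) in CTRL mice and 12.4 to 36.3 CPM (median 17.8) on day 7 (log2FC 1.46 ± 0.27, adjusted p = 9.1e-06), *Fos* and *Egr1* were not called (adjusted p = 0.52 and 0.12), and *Nr4a1* was lower (log2FC -0.71 ± 0.30, adjusted p = 0.043), a call lost when any 1 of 12 mice was left out.

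Markers of other tissues moved with the groups in part, and their part in the other results was not tested. All 5 red blood cell genes tested fell (median log2FC -0.90), with summed levels of 1095 to 2875 CPM in CTRL mice (median 1730.5) and 634 to 1725 CPM on day 7 (median 867). *Hba-a1* and *Hba-a2*, which are near-identical copies, had log2FC of -0.91 ± 0.24 and -0.98 ± 0.25. Summed thymus genes ranged 0.449 to 26.3 CPM in CTRL mice (median 1.23) and 0.643 to 3.05 CPM on day 7 (median 1.08), and 2 of 2 tested were lower, *Rag1* (log2FC -2.95 ± 0.86, adjusted p = 0.0038) and *Dntt* (log2FC -1.67 ± 0.57), but 0 without the 5 mice. *Rag2* and the thymic epithelial markers *Foxn1* and *Psmb11* were too low to be tested. Summed cardiac genes ranged 75.6 to 302 CPM in CTRL mice (median 128) and 53.2 to 431 CPM on day 7 (median 75.3), skeletal muscle genes 3.53 to 9.26 CPM in CTRL mice (median 7.12) and 5.33 to 10.7 CPM on day 7 (median 6.46), and adipose genes 0.636 to 10.1 CPM in CTRL mice (median 4.60) and 1.29 to 113 CPM on day 7 (median 2.44), and by edgeR 0 members of these lists were called. At an unadjusted p under 0.05, 0 cardiac, 0 skeletal muscle and 1 adipose gene passed, and by DESeq2 0, 1 and 1 were called. The heart muscle genes *Myh6* and *Actc1* had log2FC of -0.49 ± 0.86 and -0.43 ± 0.32, the skeletal muscle gene *Ckm* of -0.70 ± 0.87 and the fat cell hormone gene *Adipoq* of 2.12 ± 0.97 (adjusted p = 0.66, 0.27, 0.53 and 0.065). The difference in *Adipoq* turned to -1.36 without day 7 replicate 8. *Acta1*, of skeletal muscle, and *Ucp1*, of brown fat, were too low to be tested.

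Summed mesothelial genes ranged 66.9 to 217 CPM in CTRL mice (median 157) and 155 to 286 CPM on day 7 (median 236), and *Msln*, encoding mesothelin, rose (log2FC 1.14 ± 0.26, adjusted p = 2.3e-04) while *Upk3b* had a log2FC of -0.21 ± 0.24 (adjusted p = 0.50). For lymph node stroma, *Cxcl13*, the B cell chemokine, ranged 2.07 to 5.24 CPM (median 4.10) in CTRL mice and 6.74 to 41.4 CPM (median 13.6) on day 7 (log2FC 2.22 ± 0.43, adjusted p = 2.3e-05), while the venule marker *Glycam1* had at most 0.167 CPM in any of the 20 mice. Of 6 mitochondrially encoded genes tested, 1 was called, *mt-Nd2* (log2FC -0.48 ± 0.14, adjusted p = 0.0033), and *mt-Co1* and *mt-Nd1* had log2FC of -0.12 ± 0.11 and -0.063 ± 0.11 (adjusted p = 0.37 and 0.66). The mitochondrial genes *mt-Co2* and *mt-Atp6* held at most 1 count in any of the 20 libraries, so the table carries no usable values for them.

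The day 7 response was set against day 14, the nearest later day, by a contrast of 12 day 14 mice with the 10 day 7 mice in the same fit, which uses no CTRL mice but shares the day 7 mice. By edgeR, 2763 of 16221 genes (17.0%) were called, 1538 higher (9.48%) and 1225 lower (7.55%) on day 14. Scaling by library size alone gave 1202 higher and 1631 lower genes, and upper quartile scaling 1302 and 1543, so the balance of directions rests on the scaling. Most genes of several matrix lists and of recruited macrophages were higher on day 14 than on day 7. The counts were 21 of 22 collagen and crosslinking genes, 13 of 18 provisional matrix genes, 10 of 13 matrix proteases, 12 of 15 recruited macrophage genes and 11 of 19 TGF-beta and activin genes. *Spp1* ranged 320.4 to 827 CPM (median 585) on day 7 and 826 to 7806 CPM (median 2669) on day 14 (log2FC 2.58 ± 0.47, adjusted p = 8.3e-05), and *Col1a1* 692 to 1525 CPM (median 944) on day 7 and 1029.7 to 4465 CPM (median 1969.9) on day 14 (log2FC 1.22 ± 0.31, adjusted p = 0.0041).

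The largest increases from day 7 to day 14 without overlap were in *Grem1*, a BMP antagonist (log2FC 3.48 ± 0.70, adjusted p = 3.6e-04), *Ankrd34b* (log2FC 3.11), the collagenase *Mmp13* (2.35), the collagen-binding *Fmod* (2.31) and *Cthrc1*, a marker of matrix-producing fibroblasts (2.23). On day 7 against CTRL, *Ankrd34b* and *Mmp13* were higher (log2FC 1.83 ± 0.52 and 1.28 ± 0.44), whereas *Grem1*, *Fmod* and *Cthrc1* were not called (log2FC 2.20 ± 1.00, 0.28 ± 0.39 and 0.27 ± 0.47, adjusted p = 0.064, 0.58 and 0.66). Although not called, *Grem1* did not overlap between groups, with 0.307 to 1.28 CPM in CTRL mice and 2.19 to 4.51 CPM on day 7. *Fmod* and *Cthrc1* overlapped. The largest decreases without overlap were in *Cacna2d4* (-1.14), *Cth* (-0.89), *Tmprss4* (-0.72), *Fmo1* (-0.72) and *Acat2* (-0.55), of which *Tmprss4*, an epithelial protease, *Acat2*, of sterol synthesis, and *Cth*, of cysteine synthesis, were higher on day 7 than in CTRL mice (log2FC 0.49 ± 0.10, 0.48 ± 0.10 and 0.35 ± 0.14). *Fmo1*, a flavin monooxygenase, was lower on day 7 than in CTRL mice as well (log2FC -0.85 ± 0.19, adjusted p = 2.4e-04), and *Cacna2d4* was not called (adjusted p = 0.13).

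Cholesterol, airway and surfactant genes were lower on day 14 than on day 7. Of 18 cholesterol synthesis genes 13 were lower, of 16 ciliated cell genes 13, of 16 xenobiotic genes 12, of 12 club and secretory genes 7 and of 13 AT2 genes 7. Among all genes, 7.55% were lower and 9.48% higher. *Sftpc* ranged 9125 to 18613 CPM (median 11538) on day 7 and 3342 to 13545 CPM (median 6909.6) on day 14 (log2FC -0.64 ± 0.18, adjusted p = 0.0099), and *Sqle* 70.9 to 138 CPM (median 85.6) on day 7 and 38.5 to 74.9 CPM (median 56.5) on day 14 (log2FC -0.60 ± 0.10, adjusted p = 2.2e-05). Of the type 2 genes, 5 were lower and 2 higher on day 14, with *Retnla* at 458 to 1294 CPM (median 865) on day 7 and 128 to 679 CPM (median 438) on day 14 (log2FC -1.18 ± 0.35, adjusted p = 0.013) and *Il33* at 168 to 299 CPM (median 254) on day 7 and 17.4 to 198 CPM (median 136) on day 14 (log2FC -1.02 ± 0.22, adjusted p = 9.2e-04). Of 19 p53 targets 4 were lower and 0 higher by edgeR, 2 higher without day 7 replicate 1 or without the 5 mice, and *Cdkn1a* had a log2FC of -0.047 (adjusted p = 0.86). Of 24 mitosis genes 2 were higher on day 14, and of 23 S phase genes 1, against 9.48% of all genes, so neither list stood out. *Krt8* was lower on day 14 (log2FC -0.41 ± 0.11, adjusted p = 0.0081), while *Cldn4* had a log2FC of 0.26 (adjusted p = 0.60).

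**Figure D5:**
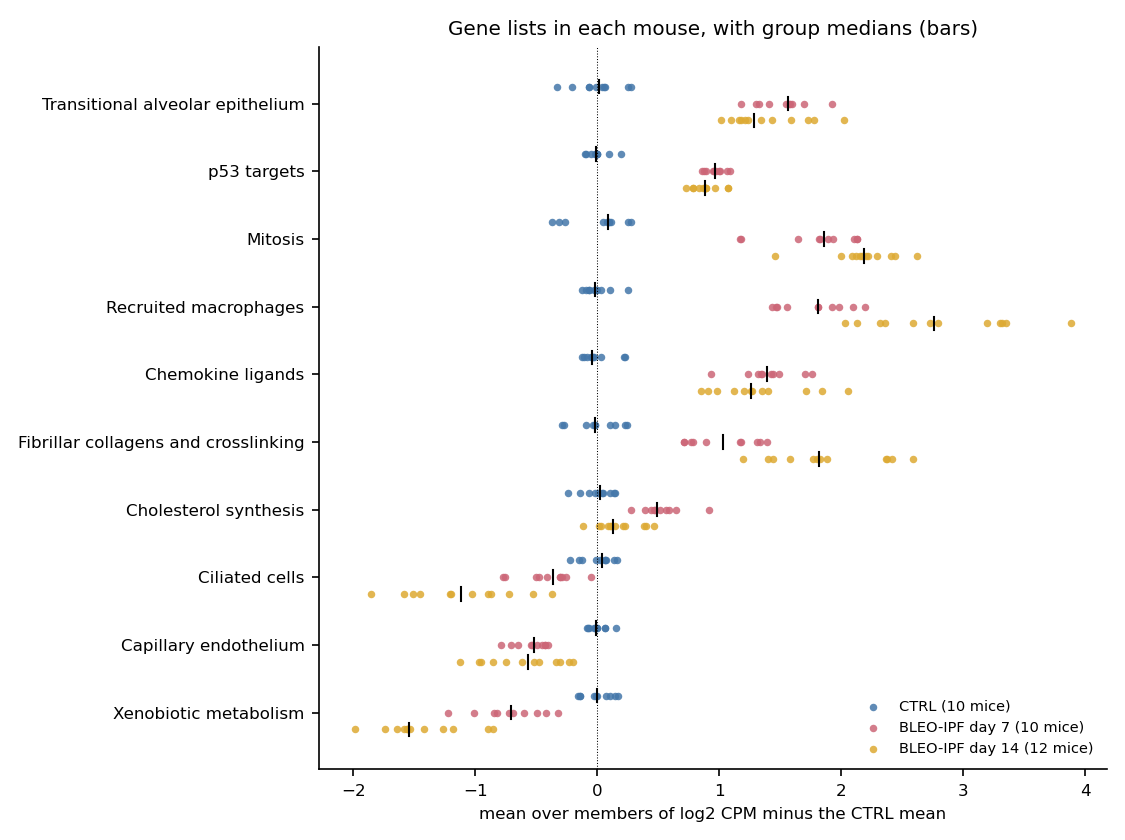
Each point is 1 mouse, with the mean over the members of a list of log2 CPM minus the CTRL mean on the x axis, for 10 CTRL (blue), 10 day 7 (red) and 12 day 14 mice (yellow), and black bars at group medians. Median values for recruited macrophages are 1.81 on day 7 and 2.76 on day 14, and those for cholesterol synthesis 0.49 and 0.13.

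To see how the injury varied between the 10 day 7 mice, 6 pairs of genes were correlated in log2 CPM, with two-sided permutation p-values adjusted over the 6 pairs. *Ccl2* and *Arg1*, a macrophage enzyme, were correlated by Pearson's r (r = 0.76, p = 0.0098, adjusted p = 0.039) but not by Spearman's rho after adjustment (rho = 0.73, p = 0.020, adjusted p = 0.092), and r was 0.66 without the 2 mice farthest from the median of *Ccl2*. *Krt8* and *Cdkn1a* had r = 0.73 (p = 0.013, adjusted p = 0.039) and rho = 0.60 (p = 0.073, adjusted p = 0.15), but r was 0.46 without the 2 farthest mice, so the relation rests on those mice. For *Ager* with *Krt8*, r was 0.51 (p = 0.13, adjusted p = 0.27) and rho 0.70 (p = 0.031, adjusted p = 0.092), and r was 0.86 without 2 mice. *Krt8* showed no relation past the threshold with *Sftpc* (r = -0.088, p = 0.81, adjusted p = 0.81, rho = -0.030, p = 0.95, adjusted p = 0.95), *Col1a1* (r = -0.40, p = 0.25, adjusted p = 0.37, rho = -0.52, p = 0.13, adjusted p = 0.20) or *Spp1* (r = -0.16, p = 0.65, adjusted p = 0.78, rho = -0.22, p = 0.54, adjusted p = 0.65).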

How the data were processed

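Lung RNA of 75 male mice (inferior lobe of the right lung, 1 library per mouse) had been sequenced with a strand-specific library kit, and of these the 10 CTRL and 10 BLEO-IPF day 7 mice were compared. The authors deposited raw read counts per gene without normalization, made with STAR 2.7.0f on GRCm38/mm10 and Ensembl 96 per the submitters' processing notes and methods. The counting program, its strand setting and its handling of multiple matches are not given in the sources used here. The table held 0 rows without a gene and 0 columns without a sample.

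Genes were filtered with filterByExpr (edgeR 4.0.16), scaled by TMM factors and fitted by the quasi-likelihood method over all 75 mice, which share 1 estimate of the spread. The F test was adjusted by Benjamini-Hochberg (threshold 0.05), and SE was the log2FC divided by the square root of F. CPM values use TMM-scaled library sizes and log2 CPM a prior count of 2. On data simulated for day 7 against CTRL (16098 genes), 49 of 67 genes changed by a log2FC of 0.5 were recovered. Of those changed by 1 and by 2, 65 of 67 and 66 of 66 were recovered, and 15 unchanged genes were called. The simulation changed few genes and used the same spread trend in all groups, so recovery in the real contrast may differ. No pair of libraries in either group was a duplicate by a chi-square test of counts (lowest ratio to degrees of freedom 3.88). Mice are separate animals, and counts limit precision for low genes.

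The gene lists and members were chosen with earlier results of these data known. Named genes were the 8 largest increases and 8 largest decreases on day 7 with a mean log2 CPM above 1, a named symbol and no overlap between groups; for each list, its first 2 genes and its called members with the largest increase and decrease; and the 5 largest in each direction without overlap on day 14 against day 7. Other genes with values were chosen after their values were seen. A few genes named by this rule are not reported here. Alternatives were DESeq2 1.42.0, other scalings and filters, the 2 groups alone, a replicate block, a fold threshold and leaving out mice. Correlations used 100000 permutations. R 4.3.3, Python 3.11.15, scipy 1.17.1 and matplotlib 3.10.9 were used, and promoters came from a RefSeq table of GRCm38.p6.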

Additional observations from a re-analysis of the deposited data

Results flagged for a closer look

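Groups of 10 mice were checked for the 16 genes with the largest changes and for 2 library measures, total counts and mitochondrial share. In 5 of 36 checks 1 mouse lay far from the others, where chance flags about 1 in 20 groups. The measure is the gap of the extreme mouse to its neighbour in log2 CPM divided by the range of the group. It was 0.497 for *Chl1* in CTRL mice and 0.751 for *Saa3* in CTRL mice. On day 7 it was 0.520 for *Thbs4*, 0.540 for *Igfbp3* and 0.488 for *Ackr4*.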

How the results depend on the processing

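The number of genes called on day 7 lay between 6126 and 8025 under the scalings, filters, tools and mice tried, against 7429, and leaving out each mouse in turn gave 6973 to 7504. It was 7617 by DESeq2 and 7597 with the replicate block. The excess of higher over lower genes on day 7 depended on the filter and the fit. A stricter filter, which dropped genes below 10 counts in any mouse, gave 3277 higher and 3323 lower genes. Fitting the 2 groups alone gave 4030 higher and 3995 lower. Every other setting tried gave more higher than lower genes, for example 4302 and 3071 when scaled by library size alone. With an absolute log2FC of at least 1 required, 1028 genes (827 higher, 201 lower) were called on day 7, 328 (229 higher, 99 lower) on day 14 against day 7, and 205 list members (187 higher, 18 lower). Over 10 pairs of mice with equal replicate numbers the correlation of deviations was -0.075 to 0.21, and 2 of 10 correlated best with their own number. Whether replicate numbers pair the mice cannot be told from so few pairs. The block gave 3353 genes on day 14 against day 7, where 4 instead of 2 mitosis genes were higher, and 487 list members, and *Cdkn2a* was no longer called. Of 149 called named genes, 128 kept their call and direction and 0 reversed. The naming rules favored large changes and groups without overlap, so this count does not stand for all called genes. The alternatives were DESeq2, the other scalings, no filter, the block, left-out mice and the fit of the 2 groups alone. Only 139 of the 149 passed the filter on low counts in that last fit, and the rest were not checked there. The fold threshold and the stricter filter were not applied to single genes. Of the 149, 12 lost their call when some 1 mouse was left out and 18 without the 5 mice with raised thymus, cardiac or adipose genes, for which the cause was not tested. Genes that changed sign were not called in the edgeR fit of all mice. *Ager* had a log2FC of -0.00030 by DESeq2 and -0.082 to 0.047 with 1 mouse left out, and *Nqo1* -0.18 to 0.012. *Adipoq* had -1.48 by DESeq2, -0.064 with the block, -1.04 without the 5 mice and -1.36 to 2.32 with 1 mouse left out. Without the 5 mice *Scgb3a2* had 0.013 and *Jchain* -0.084. Genes with few counts in both groups are limited by depth.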
